A study of Oryza sativa with 58 samples.

Results

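The on-off genes described here are the 200 of 55986 listed rice genes whose young leaf level differed most between varieties. They were chosen from the 34 young leaf libraries of 17 rice (Oryza sativa) varieties, 2 replicates each. The level of a gene in a variety was the mean of its 2 FPKM values (fragments mapped to a gene, scaled by its length and by the total of mapped fragments) on the log2(mean + 1) scale. The genes with the largest difference between the third highest and the third lowest of the 17 variety values were taken. The chosen genes are called members below. The choice used the measured levels, so the differences between varieties are a description of the members and were not tested as a finding about them.

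The series holds 58 RNA-Seq libraries of a rice epigenome study, and the 24 libraries of MH63, ZS97 and Nip are listed by other gene identifiers and were not used here. RNA was taken from young leaves of seedlings about 2 weeks old, and no treatment separates the varieties. The study places HKG 98 and Garia in Aus, and Aijiaonante, Xibaizhan, WH139, Nanjing11, 9311, Y134 and IR72 in Xian/Indica. It places PeiC122, Yong Chal Byo, TAINO 38, Ginga and LABELLE in the intermediate group, Latisai1 in Geng/Japonica, and Gasym Hany and BASMATI 385 in the aromatic group. These subpopulations are not in the sample labels, so they are used only for description. Nothing in the labels says whether the 2 replicates of a variety came from separate plants.

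A cultivated rice variety carries its own set of genes. Genes can be lost, duplicated, moved or altered by transposons between subpopulations, and a promoter variant can keep a gene that is present from being transcribed. In RNA-Seq mapped to 1 reference, a gene that is absent, strongly diverged or silent can look the same. An absent or silent gene gives no reads, and those of a strongly diverged copy are not assigned to the reference gene. Whether an off member was absent, diverged or silent cannot be told apart in these data. The identifiers are those of the MSU7 annotation, and no gene names were paired with them, so the members are given by locus and their functions are not described. For the same reason the leaf origin of the libraries was not checked against marker genes.

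Summed over genes, a library held 609065 to 1442721 FPKM, and between 18170 and 20083 genes per library were above 1 FPKM. The relative depth ranged from 0.418 to 1.03 times that of HKG 98 replicate 1. It was estimated as the most common ratio of that library to the other over genes between 0.001 and 0.3 FPKM in both. Replicates of a variety correlated across genes with Pearson r between 0.951 and 0.995. PeiC122 had the lowest value, and its replicate 2 was closer to 9311 (r = 0.971) than to its own replicate, the only library of the 34 closer to another variety. Replicate 1 of PeiC122 was the more unusual of the 2 libraries. It had the lowest sum of all libraries, the fewest genes above 1 FPKM (18170) and the most genes at 0 (32017). The next fewest genes above 1 FPKM were 19310, in Nanjing11 replicate 2, and PeiC122 replicate 2 had 19706. The closest other variety of PeiC122 replicate 1 was also 9311, with r = 0.935.

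The differences of the 200 members ranged from 4.77 to 15.59 on the log2 scale with a median of 5.69, whereas the median over the 24568 genes above 1 FPKM in at least 1 variety was 0.66. The third highest variety of a member had between 26.2 and 49386 FPKM, with a median of 55.4 FPKM. The third lowest variety had at most 12 FPKM, and its median was 0. Just inside the limit were LOC_Os03g14310 with a difference of 4.78 and LOC_Os08g34879 with 4.77. Just outside were LOC_Os09g10340 with 4.77 and LOC_Os04g08330 with 4.76, so the limit cuts through a continuous series of genes.

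By variety means, 185 members (92.5%) were above 1 FPKM in 3 to 14 varieties and at or under 1 FPKM in the others, a split found in 8.57% of all listed genes. The choice favours this split, so the share is not a result. The other 15 members were above 1 FPKM in 15 or more varieties, 7 of them in all 17. Every number of expressing varieties from 3 to 14 was represented, by 9 members (9 varieties) to 27 members (14 varieties).

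Replicates divided the members into a consistent and an inconsistent part. When the varieties of each member were split at the largest gap between their means, the high and low libraries did not overlap in 144 members (72.0%), against 49.9% of the genes above 1 FPKM in a variety. In the other 56 members at least 1 library of a high variety was at or below a library of a low variety. In 118 of the 144 members, both replicates of each of the 17 varieties fell on the same side of 1 FPKM and 3 to 14 varieties were above it. These 118 members (59.0%, against 4.11% of genes) are called consistent below. The choice favours wide gaps and the split at 1 FPKM, so neither this share nor the 72.0% is a result. A variety is called on for a member when both of its libraries were above 1 FPKM, and off when both were at or under it.

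**Figure D1:**
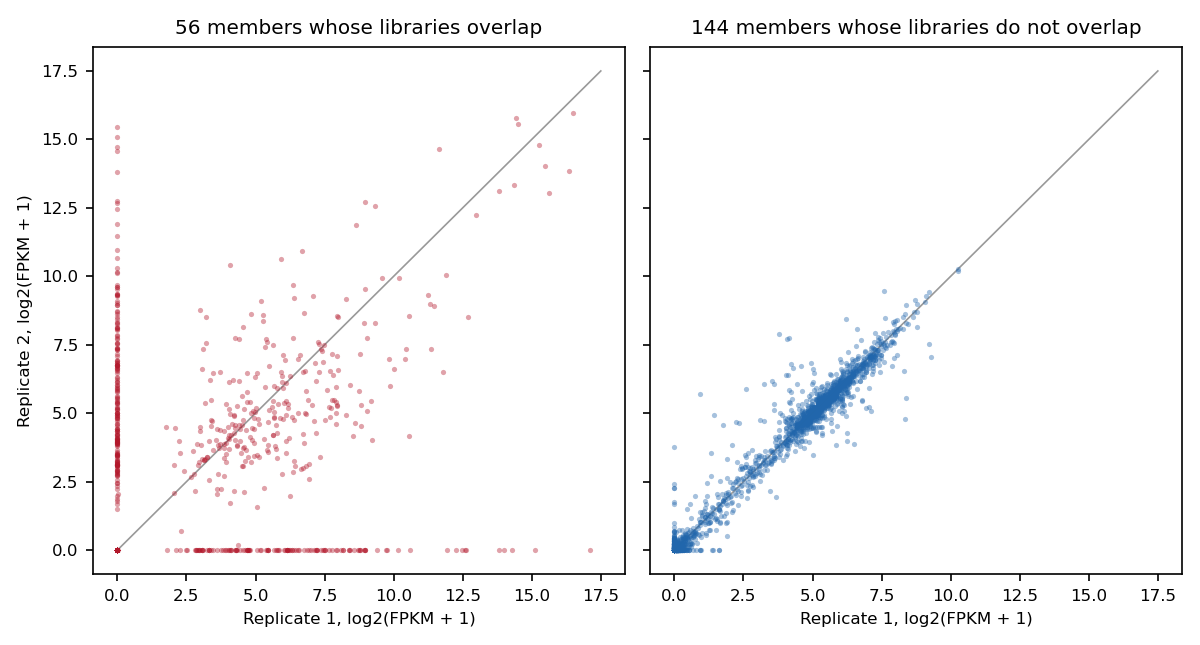
Replicate 1 (x axis) against replicate 2 (y axis), both as log2(FPKM + 1), with 1 point for each member and variety and a line of equality. The 56 members whose libraries overlap (left) have many points along both axes, where 1 library was listed at 0, and the 144 members without overlap (right) lie along the line.

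In the F test over the 17 varieties (limma on log2(FPKM + 1), Benjamini-Hochberg adjusted p below 0.01 and over 1.5-fold between the highest and the lowest variety), 158 of the 200 members were called (79.0%), where 68.8% of the genes tested were called. All 144 members without overlap were among them, and 14 of the 56 members with overlap. The rule used the same contrast, so the members' share is given as a description. These p-values compare the variety means with the spread between the 2 libraries of a variety, pooled over varieties and moderated across genes. That spread may be technical.

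Many of the largest differences lay in the inconsistent part. In 55 members (27.5%, against 1.84% of genes above 1 FPKM), at least 1 variety was listed at 0 in 1 replicate and above 10 FPKM in the other. Of these, 54 belonged to the 56 members with overlap. This nearly follows from the definitions, since a 0 in a high variety always gives overlap. The 55 members included 8 of the 10 members with the largest difference, 21 of the first 50 and 9 of the last 50. Of the 248 such combinations of member and variety, the 0 was in the shallower library of the variety in 155 and in the deeper one in 85. The part of depth in this was not tested.

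LOC_Os02g27769, on chromosome 2, had the largest difference, 15.59. It was listed at 142518 FPKM in Garia replicate 1 and at 0 in Garia replicate 2, the largest disagreement between replicates among the members. It was at 45322 FPKM in PeiC122 replicate 2 and at 0 in replicate 1, and at 34992 FPKM in Xibaizhan replicate 2 and at 0 in replicate 1. Both libraries were high in 7 varieties, among them HKG 98 (46158 and 16888 FPKM), WH139 (91527 and 63328 FPKM) and Nanjing11 (39785 and 28481 FPKM). Both were at 0 in 9311, Yong Chal Byo and TAINO 38. Thus 7 varieties disagreed between replicates, and only a part of the varieties had a state that both libraries shared.

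LOC_Os09g00999 (difference 14.12) showed the same kind of values. Its 2 libraries had 22970 and 48249 FPKM in Latisai1, and 8052 and 4867 FPKM in HKG 98. In 9311 they had 35635 FPKM in replicate 1 and 0 in replicate 2, and in IR72 0 in replicate 1 and 24483 FPKM in replicate 2. Aijiaonante, Xibaizhan, WH139, TAINO 38, Ginga and BASMATI 385 were at 0 in both libraries. Here too 7 varieties were at 0 in 1 library and high in the other.

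LOC_Os08g24200 (difference 7.95) had no variety in which both libraries were above 0. It was high in 1 library each of Aijiaonante (492 FPKM), Nanjing11 (836 FPKM), IR72 (423 FPKM), Yong Chal Byo (336 FPKM) and Ginga (1130 FPKM), and listed at 0 in the other library of each. LOC_Os05g04670 (difference 11.75) was at 14460 FPKM in Garia replicate 1 and at 0 in replicate 2, and at 6315 FPKM in Xibaizhan replicate 1 and at 0 in replicate 2. Only Aijiaonante (492 and 6735 FPKM) and BASMATI 385 (6539 and 363 FPKM) had both libraries above 0. LOC_Os11g25030, the member with the fourth highest variety level, owed it to Latisai1 replicate 2 with 6831 FPKM, while replicate 1 was under 0.0001 FPKM.

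LOC_Os04g12920 (difference 10.69) had more varieties with a shared state. Both libraries were above 0 in HKG 98 (245 and 373 FPKM), Aijiaonante (644 and 6074 FPKM), Xibaizhan (2818 and 478 FPKM), WH139 (2620 and 160.9 FPKM), Nanjing11 (490.1 and 313 FPKM) and Gasym Hany (248 and 136 FPKM). Both were at 0 in 8 varieties. Garia (3817 FPKM in replicate 2), 9311 (268 FPKM in replicate 2) and BASMATI 385 (817 FPKM in replicate 2) were at 0 in replicate 1. The replicates thus shared a state in 14 of the 17 varieties, and their levels were more than 2-fold apart in Aijiaonante, Xibaizhan and WH139.

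LOC_Os04g44790 (difference 9.77), LOC_Os12g38650 (8.75) and LOC_Os02g10370 (8.39) complete the members of this kind among the 10 with the largest difference. LOC_Os12g38650 was at 6180 FPKM in BASMATI 385 replicate 1 and at 0 in replicate 2, and no variety had both libraries above 0. LOC_Os04g44790 had both libraries above 0 in HKG 98 (2576 and 509.97 FPKM), IR72 (769.7 and 977 FPKM) and Yong Chal Byo (2432 and 631 FPKM). LOC_Os02g10370 had both above 0 in Xibaizhan (900.05 and 127 FPKM) and in a few varieties at lower levels, such as Nanjing11 (49.3 and 62.1 FPKM).

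Low values above 0 were rare in the members with overlap. Leaving out values under 0.0001 FPKM, the lowest value above 0 had a median over members of 8.33 FPKM in the 56 members with overlap, and it was above 1 FPKM in 55 of them and above 10 FPKM in 23. In the 118 consistent members its median was 0.115 FPKM, and it was above 1 FPKM in 23. These 23 were the members with every off library at 0, and their median was 19.9 FPKM, so a high lowest value was not particular to the members with overlap. The off libraries of consistent members are at or under 1 FPKM by definition. For LOC_Os02g27769 the lowest value above 0 was 4940 FPKM, in Latisai1 replicate 1. Levels between 0 and this value did not occur for this gene. The files hold neither transcript lengths nor read counts, so the number of reads behind a value is not known.

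The 2 other members among the 10 largest differences had no variety at 0 in 1 library and above 10 FPKM in the other. LOC_Os05g12410 (difference 8.14) had the largest difference of the consistent members. It was on in HKG 98 (1219.7 and 1184 FPKM), Garia (337 and 315 FPKM), Aijiaonante (248 and 304 FPKM), Nanjing11 (285.7 and 278 FPKM) and Latisai1 (196 and 356 FPKM). The 24 libraries of the other 12 varieties were at most 0.514 FPKM, and 14 of them were at 0. The on and off libraries were far apart, and the on varieties came from the Aus, Xian/Indica and Geng/Japonica groups. LOC_Os07g25050 (difference 7.62) was on in TAINO 38 (591 and 683 FPKM), LABELLE (150.6 and 241 FPKM), Latisai1 (73.0 and 344 FPKM), IR72 (62.4 and 71.0 FPKM) and PeiC122 (64.3 and 79.6 FPKM), against at most 3.84 FPKM in the other 12 varieties. It is not counted as consistent because Yong Chal Byo, Ginga and BASMATI 385 crossed 1 FPKM between replicates.

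**Figure D2:**
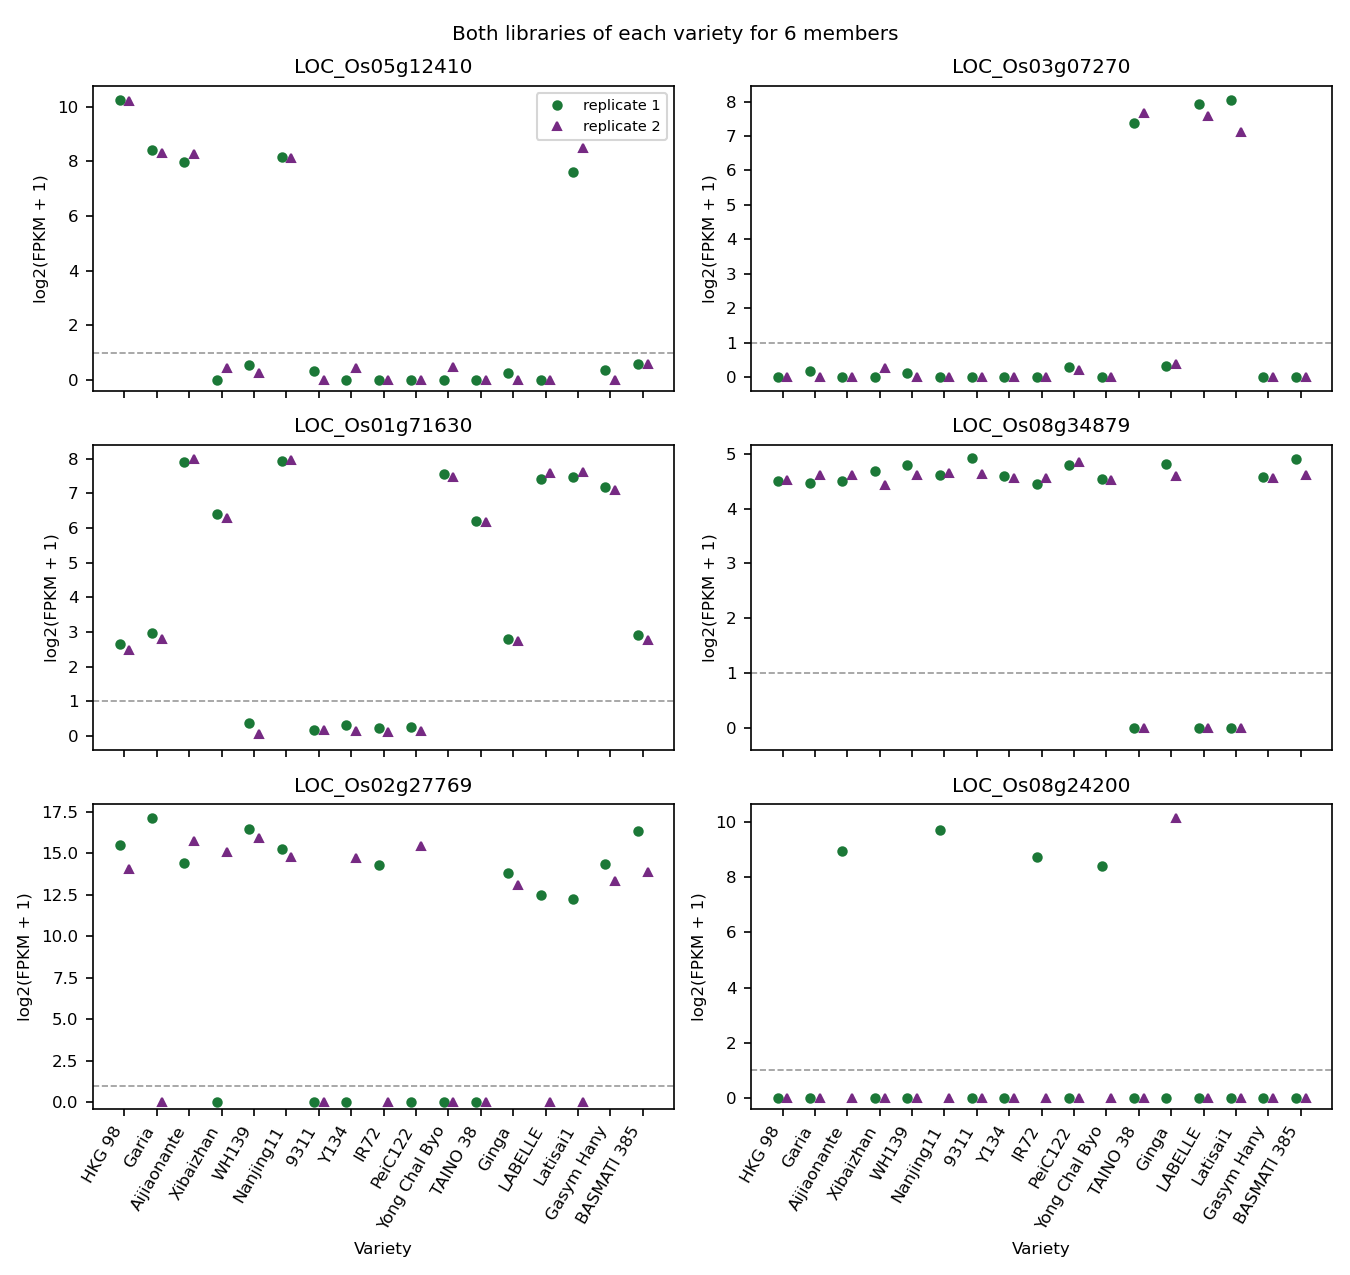
Levels of 6 members as log2(FPKM + 1) (y axis) in replicate 1 (circles) and replicate 2 (triangles) of the 17 varieties (x axis), with 1 FPKM as a dashed line. LOC_Os05g12410, LOC_Os03g07270, LOC_Os01g71630 and LOC_Os08g34879 have both replicates of each variety on the same side of 1 FPKM, whereas LOC_Os02g27769 has 7 varieties and LOC_Os08g24200 5 varieties with 1 library at 0 and the other high.

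In the 118 consistent members, the 1990 on libraries had between 1.02 and 1219.7 FPKM with a median of 36.6 FPKM. Of the 2022 off libraries, 1533 (75.8%) were listed at 0, and the highest was 0.968 FPKM. In 23 members every off library was at 0, and in 75 members every on library was above 10 FPKM. The lowest on library of a member had a median of 16.1 FPKM over the members, and the highest off library 0.155 FPKM, so a wide empty range lay between the states of a typical member.

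LOC_Os03g07270, chosen like the next genes after its values were seen, had the second largest difference of the consistent members (7.52). It was on in TAINO 38 (164 and 202 FPKM), LABELLE (245 and 189 FPKM) and Latisai1 (265 and 137 FPKM). The other 28 libraries were at most 0.303 FPKM, and 21 were at 0. LOC_Os12g13674 (difference 7.34) was on in Latisai1 (224 and 178 FPKM), LABELLE (159.6 and 181 FPKM), Y134 (164 and 157 FPKM), PeiC122 (30.2 and 114 FPKM) and Gasym Hany (35.6 and 39.97 FPKM), against at most 0.143 FPKM in the other 12 varieties. LOC_Os07g01960 (difference 7.32) was on in Garia (399 and 368 FPKM), Latisai1 (193 and 702 FPKM), Ginga (177 and 139.3 FPKM) and BASMATI 385 (132 and 59.2 FPKM), and the other 26 libraries were all listed at 0. LOC_Os09g15044 (difference 7.12) was on in HKG 98 (154 and 156 FPKM), Ginga (179 and 174 FPKM), LABELLE (133 and 118 FPKM), Latisai1 (167 and 108 FPKM) and TAINO 38 (85.9 and 114 FPKM), against at most 0.163 FPKM elsewhere. The sets of on varieties of these genes differ. All 4 include Latisai1, but LOC_Os08g09290 and LOC_Os11g10320, also among the 10 consistent members with the largest difference, were off there.

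The on level was nearly the same in every on variety for some members. LOC_Os08g34879, the last member, had between 20.6 and 29.1 FPKM (median 23.2) in the 28 libraries of 14 varieties and 0 in both libraries of TAINO 38, LABELLE and Latisai1. LOC_Os08g28784 (difference 5.12) had between 33.6 and 39.2 FPKM in Ginga, Gasym Hany and BASMATI 385, and 27 of the other 28 libraries were at 0. LOC_Os11g38580 had the smallest disagreement between replicates of all members, at most 0.14 on the log2 scale in any variety. It was on in Nanjing11 (41.3 and 43.3 FPKM), Aijiaonante (32.1 and 35.3 FPKM), Xibaizhan (33.5 and 32.4 FPKM) and Yong Chal Byo (16.9 and 18.1 FPKM), against at most 0.493 FPKM elsewhere. LOC_Os08g34879 and LOC_Os08g28784 thus had 1 narrow on level and an off level at or near 0.

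In others the on varieties spread over several levels. Over the consistent members, the highest on variety mean was 1.13 to 121 times the lowest, with a median of 4.46 times. LOC_Os01g71630 (difference 7.33) had 3 levels that both replicates shared. It was at 70.9 to 256 FPKM in Aijiaonante, Nanjing11, Yong Chal Byo, LABELLE, Latisai1, Gasym Hany, Xibaizhan and TAINO 38. It was at 4.58 to 6.89 FPKM in HKG 98, Garia, Ginga and BASMATI 385, and at most 0.297 FPKM in WH139, 9311, Y134, IR72 and PeiC122. LOC_Os03g14310, the last member but 1, had 41.2 and 45.6 FPKM in Aijiaonante but 2.07 and 2.196 FPKM in HKG 98, and at most 0.0874 FPKM in PeiC122, TAINO 38 and Latisai1. LOC_Os08g09290 (difference 7.48) is a consistent member whose on level was not shared by replicates. It was listed at 0 in both libraries of Y134, TAINO 38 and Latisai1, and ranged elsewhere from 4.91 to 438 FPKM, with 328 and 26.5 FPKM in the 2 libraries of WH139 and 16.9 and 213 FPKM in those of Aijiaonante.

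The 7 members above 1 FPKM in all 17 varieties were off in none by their means. LOC_Os10g05980 (difference 5.81) was between 42.8 and 495 FPKM in 12 varieties and between 1.82 and 9.99 FPKM in Garia, Y134, Ginga, Gasym Hany and BASMATI 385. LOC_Os05g11320 (difference 5.80) was between 121 and 1235 FPKM in HKG 98, Garia, Aijiaonante, 9311, Ginga and LABELLE, against at most 30.8 FPKM in the other 11. LOC_Os04g56610 (difference 6.28) was above 1 FPKM by its means only, since Xibaizhan, WH139, TAINO 38 and Gasym Hany each had 1 library at 0. The other 4 were LOC_Os12g38720, LOC_Os05g12630, LOC_Os12g18729 and LOC_Os07g38470. LOC_Os07g38470 also had 2 libraries at 0. The lowest library had 0.494 FPKM for LOC_Os12g38720, 0.663 FPKM for LOC_Os05g11320 and 0.984 FPKM for LOC_Os05g12630, so these too had a library under 1 FPKM.

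**Figure D3:**
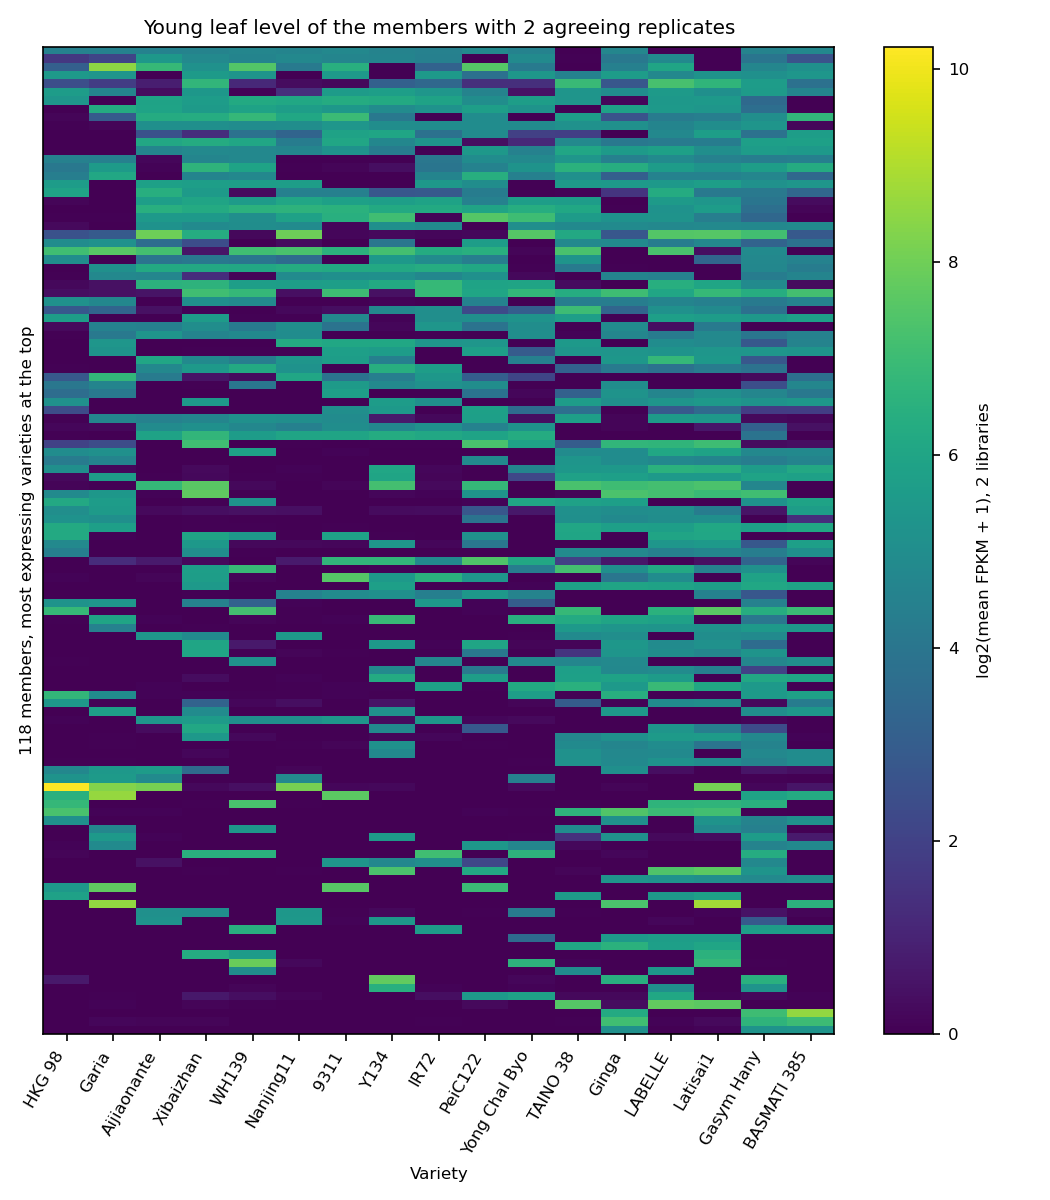
Levels of the 118 consistent members (rows, ordered by the number of on varieties) in the 17 varieties (columns), with log2(mean FPKM + 1) over 2 libraries as colour. Most rows differ from each other in which varieties are dark, and the column of Gasym Hany has the most members on, 94 of 118.

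The set of on varieties was different for almost every consistent member. The 118 members had 111 distinct sets, of which 106 were held by a single member. The most common sets had 3 members each. LOC_Os07g35979, LOC_Os06g22640 and LOC_Os08g28784 were on only in Ginga, Gasym Hany and BASMATI 385. LOC_Os07g35979 had 133 and 138 FPKM in Ginga, 105.3 and 92.7 FPKM in Gasym Hany and 126 and 130.2 FPKM in BASMATI 385, against at most 0.261 FPKM elsewhere. LOC_Os06g22640 had 73.1 and 78.03 FPKM in Ginga, 174 and 90.8 FPKM in Gasym Hany and 622 and 131 FPKM in BASMATI 385, against 0 in all other 28 libraries. These genes lie on 3 different chromosomes (7, 6 and 8).

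LOC_Os08g35420, LOC_Os10g21314 and LOC_Os02g24642 were on in all varieties but Aijiaonante, Nanjing11, 9311 and Y134, which belong to Xian/Indica. LOC_Os10g21314 had between 7.42 and 131 FPKM (median 24.98) in the 26 on libraries and 0 in all 8 libraries of these varieties. LOC_Os02g24642 had between 11.2 and 41.9 FPKM (median 22.7), against at most 0.260 FPKM. LOC_Os08g35420 had between 8.54 and 121 FPKM, against at most 0.519 FPKM. LOC_Os05g22724 had the same set by its means, between 38.2 and 199 FPKM (median 80.0), but Nanjing11 had 0.517 and 1.24 FPKM and so crossed the limit.

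LOC_Os06g23870 and LOC_Os03g45220 were off only in HKG 98, Garia, Ginga and BASMATI 385. LOC_Os06g23870 had between 12.1 and 100.1 FPKM (median 73.6) elsewhere, against at most 0.206 FPKM. LOC_Os03g45220 had between 12.96 and 67.4 FPKM (median 56.4), against at most 0.439 FPKM. In both, Gasym Hany had the lowest on level, with 12.1 and 12.3 FPKM in LOC_Os06g23870 and 12.96 and 16.7 FPKM in LOC_Os03g45220.

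The consistent members were tallied over the 7 Xian/Indica varieties only. A gene on or off in just the Aus, aromatic or Geng/Japonica varieties could not be counted as consistent. A gene on or off in just the 5 intermediate varieties could be, but that group was not tallied. Of the 118, 13 were on in all 7 Xian/Indica varieties, 20 were off in all 7, and 85 were on in some and off in others. Of the 892 consistent genes outside the 200, 7.17% were on in all 7, 22.5% off in all 7 and 70.3% mixed, against 11%, 16.9% and 72.0% of the members, so the mixed shares were close. No member was on in all 7 and off in every other variety, or the reverse, and none of the 892 other genes was. Of the 20 members off in all 7 Xian/Indica varieties, 16 were on in Ginga, 14 each in Latisai1 and BASMATI 385 and 4 in Yong Chal Byo. Of the 13 on in all 7, 10 were off in HKG 98, 9 in Garia and none in Gasym Hany.

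Pairs of varieties shared states to very different extents. Aijiaonante and Nanjing11 had the same state in 112 of the 118 members (94.9%), and LABELLE and Latisai1 in 97 (82.2%). The fewest were shared by 9311 and Ginga, 43 (36.4%). The same 892 genes, which the choice left out, gave 84.8% for Aijiaonante and Nanjing11, 76.8% for LABELLE and Latisai1, and 44.8% for 9311 and Ginga. Aijiaonante and Nanjing11 were therefore alike in both sets of genes.

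The number of consistent members on in a variety ranged from 39 in Aijiaonante and in Nanjing11 to 94 in Gasym Hany. LABELLE had 80, Latisai1 79, Ginga 74 and TAINO 38 69, whereas the 7 Xian/Indica varieties had between 39 and 61. The number of all genes above 1 FPKM varied less, from 19371 in Nanjing11 to 20126 in TAINO 38, with 19833 in Gasym Hany. Members were chosen to differ between varieties, so this contrast follows from the choice. Among the 892 consistent genes outside the 200, the number on ranged from 296 in Nanjing11 to 529 in Gasym Hany. There LABELLE had 524 on and Latisai1 515, so the lead of Gasym Hany was smaller than in the members. The study gives MSU v7.0 as the Nipponbare genome. In both sets, fewer on genes through distance from that reference cannot be told apart from lower expression. This distance was not tested.

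Gasym Hany, which had the most members on, also had the most at a low level. In 21 of its 94 on members (22.3%), both libraries were at most 0.3 times the median of the member's on libraries. In the other 16 varieties this share was between 0 and 12%. Both libraries showed it, for example 30.4 and 27.7 FPKM in LOC_Os11g10320, whose on median was 127.6 FPKM, and 26.6 and 23.4 FPKM in LOC_Os04g23140, whose on median was 141 FPKM. LOC_Os12g16280 had 11.2 and 11.2 FPKM, with an on median of 42.0 FPKM. In the 892 consistent genes outside the 200 the share was 6.62% in Gasym Hany and between 0.191% and 3.29% in the other 16 varieties. For genes on in all other varieties, the set was formed without the variety's own values, from genes above 1 FPKM in all libraries of the other 16 varieties with a median above 10 FPKM. Of the 9833 such genes on in Gasym Hany, 0.224% had both libraries at most 0.3 times that median, within the 0.214% to 0.672% that the other varieties gave when treated in the same way. The share of Gasym Hany was thus the highest of the 17 varieties in both sets of on-off genes and within the range of the others in genes on elsewhere. No test was made of it, since Gasym Hany was singled out after the values were seen.

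PeiC122 stood apart in the agreement of its replicates. At 27 of its 60 on members (45.0%) they were more than 2-fold apart, against between 0 and 10.1% in the other 16 varieties. Replicate 1 was the lower one at 43 of the 60. LOC_Os06g23775 had 5.09 FPKM in replicate 1 and 58.4 FPKM in replicate 2, LOC_Os01g14750 had 12.9 and 236 FPKM, and LOC_Os12g12570 had 1.73 and 29.3 FPKM. In the 892 other consistent genes the share was 23.7% in PeiC122 and at most 5.44% elsewhere. In the 6591 genes above 10 FPKM in all 34 libraries it was 13.9% in PeiC122 and at most 1.11% elsewhere. Replicate 1 of PeiC122 was lower in 38.0% of the former genes and in 39.7% of the latter. Its disagreement was therefore found in all 3 sets, and its direction in the members was not that of the other genes. Without PeiC122, 118 of the 200 members were consistent over the remaining varieties, but not all of them were the same members. LOC_Os04g17479, LOC_Os05g46845 and LOC_Os03g14310 needed PeiC122 to have 3 varieties on or 3 off and no longer counted. With only 1 of its libraries left out, 121 members were consistent, a count that could not fall because 1 library cannot disagree with itself.

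**Figure D4:**
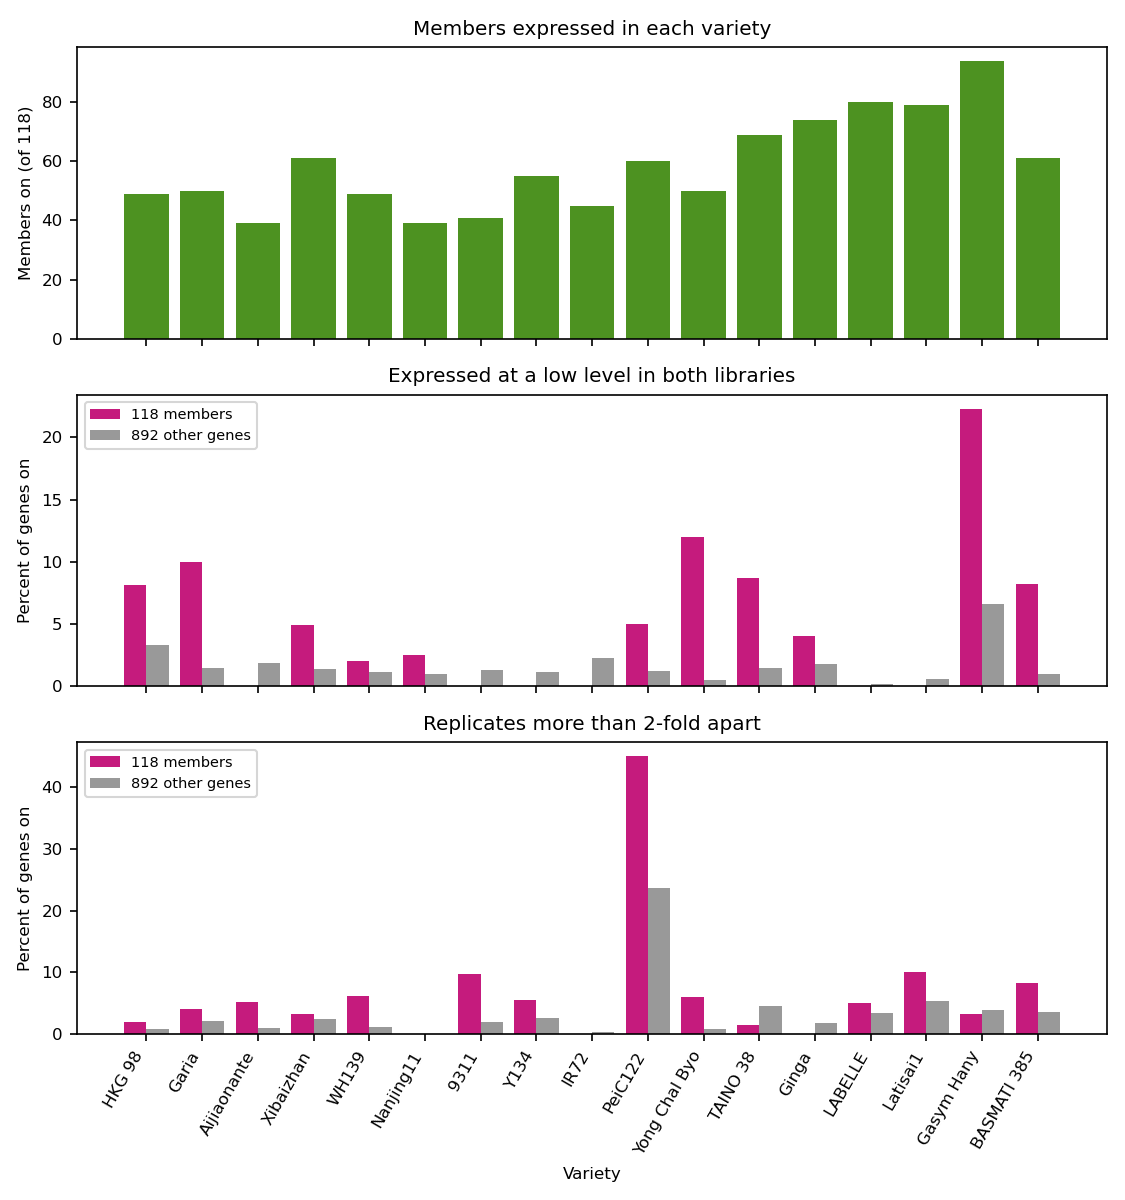
Consistent members on in each of the 17 varieties (top, number of 118), and the percent of on genes with both libraries at most 0.3 times the gene's on median (middle) or with replicates more than 2-fold apart (bottom), for the members (coloured bars) and for 892 consistent genes outside the 200 (grey bars). Gasym Hany has the highest bar at the top (94) and in the middle (22.3%), and PeiC122 at the bottom (45.0%).

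The members were spread over all 12 chromosomes, from 7 on chromosome 9 to 22 on chromosome 12. This was 0.205% of the listed loci on chromosomes 2 and 9 and 0.548% of those on chromosome 12, against 0.358% over all. In the order of identifiers, 24 members (12%) lay within 10 loci of another member, in 12 pairs, while 6.75% of all other loci lay within 10 loci of a member. Locus numbers that do not end in 0, which stand between those of the regular numbering, were found for 46 members (23%) and 35 consistent members (29.7%), against 8.05% of the genes above 1 FPKM in a variety.

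LOC_Os12g43380 and LOC_Os12g43410, both consistent members 3 loci apart on chromosome 12, had nearly opposite states. LOC_Os12g43380 was on in Xibaizhan, WH139, Yong Chal Byo, TAINO 38, Ginga, LABELLE, Latisai1 and Gasym Hany, between 14.7 and 157 FPKM (median 39.2), against at most 0.153 FPKM elsewhere. LOC_Os12g43410 was on in the other 9 varieties and in Yong Chal Byo, between 2.16 and 120.4 FPKM (median 15.5), against at most 0.895 FPKM. Only Yong Chal Byo had both genes on, with 23.9 and 14.7 FPKM of LOC_Os12g43380 and 2.16 and 4.73 FPKM of LOC_Os12g43410. No variety had both off. Across the 17 variety means, which share libraries between the genes, Pearson r on the log2 scale was -0.89.

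**Figure D5:**
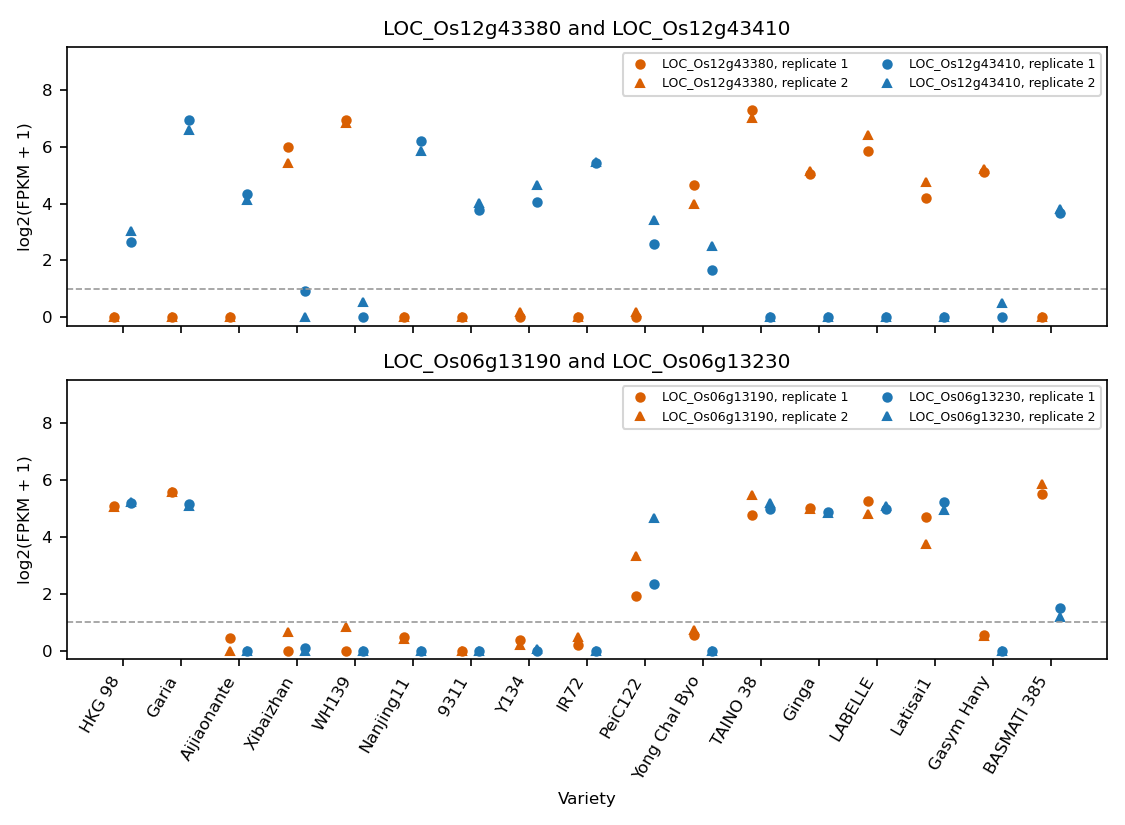
Levels as log2(FPKM + 1) (y axis) of neighbouring members in the 17 varieties (x axis), replicate 1 as circles and replicate 2 as triangles, with 1 FPKM as a dashed line. LOC_Os12g43380 and LOC_Os12g43410 (top) share a state only in Yong Chal Byo, and LOC_Os06g13190 and LOC_Os06g13230 (bottom) share it in all 17 varieties.

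LOC_Os06g13190 and LOC_Os06g13230, 5 loci apart on chromosome 6, had the same state in all 17 varieties. Both were on in HKG 98, Garia, PeiC122, TAINO 38, Ginga, LABELLE, Latisai1 and BASMATI 385. In BASMATI 385 their levels differed, with 44.0 and 56.7 FPKM of LOC_Os06g13190 and 1.82 and 1.26 FPKM of LOC_Os06g13230. LOC_Os06g23775 and LOC_Os06g23870, 10 loci apart, shared their state in 16 varieties, all but HKG 98, where LOC_Os06g23775 had 41.5 and 40.4 FPKM and LOC_Os06g23870 at most 0.0324 FPKM. LOC_Os03g37864 and LOC_Os03g37878, 2 loci apart, shared it in 14. LOC_Os07g01960 and LOC_Os07g01990, also 2 loci apart, shared it in only 7. Over all 12 pairs of members, the number of varieties on the same side of 1 FPKM by mean thus ran from 1 to 17, with LOC_Os04g23040 and LOC_Os04g23140 at 16 and LOC_Os05g10310 and LOC_Os05g10414 at 15.

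The pairs with the largest summed difference were less clear. LOC_Os10g05980 and LOC_Os10g06000, 2 loci apart, were both above 1 FPKM by mean in 16 of 17 varieties, and their levels were unrelated (r = 0.03). LOC_Os10g06000 (difference 7.08) was highest in Latisai1 (423 and 568 FPKM) and HKG 98 (534 and 531 FPKM), and was at most 2.73 FPKM in Aijiaonante, WH139, Nanjing11, PeiC122 and TAINO 38. LOC_Os12g38650 and LOC_Os12g38720 were on the same side of 1 FPKM in 11 varieties, LOC_Os04g12850 and LOC_Os04g12920 in 10, and LOC_Os05g04670 and LOC_Os05g04720 in 5. Each of these 3 pairs holds a member whose libraries overlap.

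Among all 1010 consistent genes, 367 pairs lay within 10 loci of each other. A median of 13 of the 17 varieties had the same state in both genes of a pair. The state was shared in all 17 varieties in 78 pairs, in 16 or more in 121, and in at most 1 variety in 13 pairs. Of these 13, 6 held a member. Several of the 13 share a gene, LOC_Os02g57860 or LOC_Os05g46845 among others, so they are not separate cases. Genes farther apart were not compared in this way, so the counts are not shown to be particular to neighbours. LOC_Os10g34790, a member, and LOC_Os10g34795, its neighbour, shared no state. LOC_Os10g34790 was on in 13 varieties (1.67 to 91.7 FPKM, against at most 0.390 FPKM), and LOC_Os10g34795 in the other 4, Garia, WH139, Yong Chal Byo and TAINO 38 (7.49 to 28.8 FPKM, against at most 0.191 FPKM). LOC_Os11g08020, a member, and LOC_Os11g08110 also shared none. LOC_Os11g08020 was on in 12 varieties (1.09 to 39.3 FPKM), and LOC_Os11g08110 in HKG 98, WH139, Yong Chal Byo, TAINO 38 and Latisai1 (3.07 to 6.66 FPKM). LOC_Os05g46845, a member, was off in HKG 98, Garia and PeiC122, in which LOC_Os05g46920, LOC_Os05g46950 and LOC_Os05g46954 were on. Yong Chal Byo had all 4 of these genes on. Reads that match several similar loci could be divided between them in the counting, and whether the loci of these pairs are similar in sequence was not tested.

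The genes were also chosen on 1 replicate and described in the other. The 200 genes chosen on replicate 1 shared 162 genes with the members. Their median difference between the 3 highest and 3 lowest varieties was 6.26 in replicate 1 and 5.32 when the same varieties were compared in replicate 2, while the median over all genes above 1 FPKM was 0.65 in replicate 2. In 137 of them (68.5%) the lowest of the 3 highest varieties was above the highest of the 3 lowest in replicate 2, the same as the 68.5% of all genes above 1 FPKM. Chosen on replicate 2, 171 genes were shared, the median difference was 5.30 in replicate 1, and the order held in 145 (72.5%, against 70.1%). In each choice, 31 of the 200 genes had a difference of at most 1 in the replicate not used. The share of kept orders was thus near that of other genes, while the median difference in the replicate not used for the choice stayed larger than that of all genes. Both replicates are of the same varieties and the genes were chosen for large differences, so the larger median is a description and not a test.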

How the data were processed

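RNA-Seq was measured in 58 libraries, of which the 34 young leaf libraries of 17 varieties (2 per variety) were analysed. The deposited values are FPKM made by the authors with Trimmomatic, TopHat and Cufflinks (version 2.2.5 in the submitters' processing notes). Genes are listed by MSU7 identifiers, and the study's methods give the MH63 or ZS97 genome for RNA-Seq and MSU v7.0 for histone mark libraries, so the build of these values is not certain. The column names number the libraries as a joint run does, so a scaling across libraries may be part of the values. FPKM carry no counts: counting error and detection limits are not given, and an exact 0 can be a failed estimate. No 2 libraries were identical.

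Members were taken as in the opening, with a pseudocount of 1. The members, lists and comparisons were chosen with earlier results of these data known. limma (3.58.1, R 4.3.3) was fitted to log2(FPKM + 1) with a trend over all 34 libraries, using genes with a variety mean above 1 FPKM. The choice and the fit were run on simulated data, and no outcome is reported. Those data were not shown to hold replicate disagreements like those of the members, so nothing about the members is concluded from them. Neighbours were counted in the order of the identifiers.

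Genes named by rule were the 10 largest differences, 2 on each side of the limit, up to 3 members of the 4 most common sets of varieties by mean, the 4 neighbouring pairs with the largest summed difference, the extremes of replicate agreement and the 5 highest levels. The others were chosen after their values were seen. The planned gene classes and markers were not used, as no names matched the identifiers. Same-numbered replicates did not deviate together (r between -0.22 and 0.24 over 136 pairs of varieties, above 0.1 in 8).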

Additional observations from a re-analysis of the deposited data

How the results depend on the processing

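Of the 200 genes, 2 were not among those chosen after quantile normalization, 1 after median ratio scaling, none with a highest variety of at least 10 FPKM, 29 with a pseudocount of 0.1, 49 and 45 when the second or the fourth ranks replaced the third, 38 and 29 on replicate 1 or replicate 2 alone, and 0 to 7 when 1 library was left out. Chosen after seeing the data, a selection on the lower replicate of high and the higher replicate of low varieties left out 39 of the 200 and held 20 genes whose libraries overlap, against 56, and leaving out PeiC122 left out 9 of the 200. The difference of the last gene, 4.77, was 7.72 with a pseudocount of 0.1, 5.33 and 4.11 for the second and the fourth ranks, 4.96 on replicate 1 alone and 4.33 in the selection on the lower and higher replicates, and it lay between 4.70 and 4.85 with 1 library left out. These values follow from the changed definitions. Members within reach of another were 14 with a window of 5 loci and 41 with 20 loci, against 24 with 10. With 1 library left out, 183 to 186 genes were split, 52 to 62 had libraries that overlap, 24 to 30 had a neighbour and 118 to 121 members were consistent. The last count kept the same 200 genes, and a variety with 1 library cannot disagree with itself. That count could therefore not fall under 118 and is no check. Limits of 0.5 and 5 FPKM gave 109 and 117 consistent members. The F test called 16896 genes and 158 members. Leaving out 1 library gave 16114 to 20324 genes, the most without PeiC122 replicate 2, and 155 to 158 members. With the replicate number as a block it called 16686 genes and 158 members. The samples share only a number, so this block pairs nothing. Quantile normalization moved the difference of 1 of 31 named genes by more than the replicate spread, LOC_Os07g35979, with 6.55 against 6.64.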
